A study of Homo sapiens with 4 samples.

Results

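A set of 10 genes that encode surface and Fc receptors of myeloid cells (FCER1G, FCGR1A, FCGR2A, CD36, CD86, LILRB1, LILRB4, SIRPA, CD33) or a membrane protein of their lysosomes (CD68) was followed by RNA-Seq in OCI-AML3 cells in which the NPM1 gene was targeted. They were taken by symbol, as a group related by what the proteins are known to do and with earlier results of these data known, and all 10 were found among the 58037 genes of the count table, of which 15718 had enough reads for a test. Fc receptors bind the constant part of antibodies, and several of them signal through an immunoreceptor tyrosine-based activation motif (ITAM), which recruits the kinase SYK once Src family kinases have phosphorylated it. Other receptors on the same cells carry the inhibitory counterpart (ITIM), which recruits phosphatases such as SHP-1 and dampens that signal. Monocytes and macrophages display both kinds side by side, and several of these proteins are used as antibody targets or phenotyping markers in acute myeloid leukemia (AML).

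OCI-AML3 is an established human AML line with a heterozygous NPM1 mutation (type A), a DNMT3A mutation and an NRAS mutation. All libraries were made from this line. The cells received either the guide RNA sgNPM1A, aimed at the mutant allele (mtNPM1), or a negative-control guide (sgNeg, called sgRNA Ctrl here), and were harvested 72 h (day 3) after transfection, with 2 libraries per condition and 4 in all. The cells are a transfected population of 1 line rather than selected clones, the share of edited cells is not given in the sources used here, and no untransfected cells were among the samples. In such bulk RNA, a change in the RNA of every cell and a change in the share of cells that express a gene cannot be told apart.

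The libraries held from 25069484 to 28276391 counts, so that 3 counts, taken as the floor, correspond to 0.108 to 0.118 CPM (counts per 1000000, scaled by the trimmed mean of M-values, TMM). The 2 libraries of sgRNA Ctrl differed from each other by 8.99 times the sampling noise (chi-square per degree of freedom) and those of sgNPM1A by 4.17 times, so none was treated as a duplicate deposit; this does not tell separate cultures from separate preparations of 1 culture. NPM1 itself, measured over both alleles together, had 1319 and 1385 CPM in sgRNA Ctrl and 1189 and 1132 CPM in sgNPM1A. Its log2 fold change was -0.22 ± 0.07 (SE), with an adjusted p of 0.036 in edgeR's quasi-likelihood test, short of the 0.32 (absolute log2 fold change) required for a call. By limma-trend on quantile-normalized values it was called lower, at -0.42 (adjusted p = 0.00109). Gene counts cannot tell the mutant transcript from the wild-type one, so this value does not measure how completely the mutant allele was lost. By immunoblot on the same day after transfection, the paper reports a marked fall of mutant and total NPM1 protein with sgNPM1A. Among 14 tested genes of a list of 18 myeloid identity markers, 9 rose and 0 fell, and the summed level of the list was 2569 and 2501 CPM in sgRNA Ctrl against 5523 and 6322 CPM in sgNPM1A. Most of that difference was LYZ (lysozyme), at 271 and 215 CPM against 2643 and 3367 CPM, and without it the list summed to 2298 and 2286 CPM against 2881 and 2955 CPM. The erythroid and megakaryocyte list summed to 27.0 and 29.6 CPM against 41.3 and 39.0 CPM, and to 4.21 and 4.87 CPM against 4.52 and 5.15 CPM without EPOR. The stromal and epithelial list summed to 31.4 and 33.9 CPM against 15.5 and 11.9 CPM, and to 3.97 and 5.33 CPM against 2.51 and 2.59 CPM without COL1A2. The lymphoid list lay between 1.97 and 2.49 CPM in all libraries. Counts were 0 in all 4 libraries for CD3D, CD3E, CD2, MS4A1, NCR1 and KLRD1 of the lymphoid list, HBB of the erythroid list, and EPCAM, COL3A1, CDH5 and KRT19 of the stromal and epithelial list. CSF2RA and IL3RA of the myeloid list were also listed at 0, but both are pseudoautosomal, and 44 of the 45 pseudoautosomal genes were listed at 0 for the X copy in every library, so these zeros do not measure their expression. The myeloid markers thus moved with the condition beside the receptors described here, and their part in the receptor values was not tested.

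Of the 10 receptor genes, 9 passed the filter on low counts, each with at least 225 counts in every library, and 6 of them were called (adjusted p under 0.05 over all tested genes and an absolute log2 fold change of at least 0.32). FCGR1A, LILRB4, CD36 and CD86 rose, FCGR2A and LILRB1 fell, and FCER1G, SIRPA and CD33 were not called. Across all tested genes 20.8% were called, 10.5% higher and 10.3% lower in sgNPM1A. In 8 of the 9 genes the libraries of the conditions did not overlap, a separation seen in 63.1% of all tested genes (31.4% higher and 31.7% lower in sgNPM1A), and 6 of the 8 were higher. The median log2 fold change of the 9 was 0.24 against 0.00 (0.0002) over all tested genes, and their median absolute log2 fold change was 0.47 against 0.22. The summed level of all 10 genes was 747 and 766 CPM in sgRNA Ctrl and 926 and 982 CPM in sgNPM1A.

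**Figure D1:**
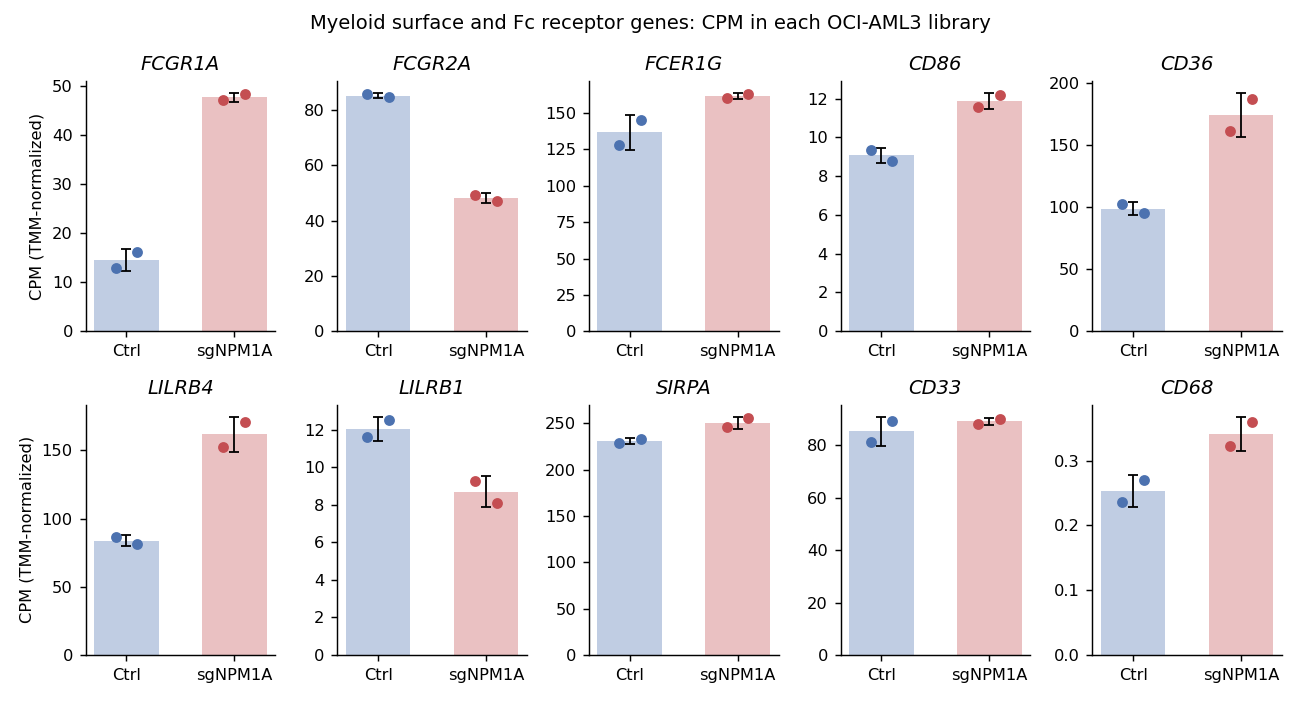
Level of each of the 10 genes in TMM-normalized CPM, with 1 point per library, bars from 0 at the mean and error bars of 1 SD (n = 2 per condition, sgRNA Ctrl in blue and sgNPM1A in red), each gene on its own axis. The libraries of the conditions lie apart for FCGR1A, LILRB4 and CD36 upwards and for FCGR2A and LILRB1 downwards, whereas those of CD33 overlap.

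FCGR1A (ENSG00000150337.13, chr1:149782694-149800609, with gene positions throughout from RefSeq on GRCh38.p14) encodes FcγRI (CD64), the high-affinity receptor for monomeric IgG, which has no ITAM of its own and signals through the chain that FCER1G encodes. It gave 12.9 and 16.2 CPM in sgRNA Ctrl and 47.1 and 48.3 CPM in sgNPM1A, from 329, 419, 1312 and 1342 counts. Both sgNPM1A libraries lay above both controls, and the control pair was the more spread. The mean rose from 14.6 ± 2.29 to 47.7 ± 0.893 CPM (SD, n = 2), a fold of 3.27 (95% interval 2.78 to 3.85) and a log2 fold change of 1.71 ± 0.11 (SE, edgeR adjusted p = 8.679e-07). A larger absolute log2 fold change was seen in 2.47% of all tested genes.

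FCGR2A (ENSG00000143226.13, chr1:161505457-161524048) encodes FcγRIIa (CD32A), a low-affinity IgG receptor that carries an ITAM in its own cytoplasmic tail and binds antibody mainly as immune complexes. Its level was 85.9 and 84.6 CPM in sgRNA Ctrl and 49.4 and 46.9 CPM in sgNPM1A. The libraries within each condition lay close together and the conditions did not overlap. The mean fell from 85.3 ± 0.934 to 48.2 ± 1.75 CPM (SD, n = 2), 1.77-fold lower, with a log2 fold change of -0.82 ± 0.07 (SE, edgeR adjusted p = 1.146e-05).

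The IgG receptors FCGR1A and FCGR2A thus moved in opposite directions. In CPM their sgNPM1A libraries overlapped, at 47.1 and 48.3 for FCGR1A against 49.4 and 46.9 for FCGR2A. Their order was exchanged only when levels were divided by exonic length. That length is the union of all annotated exons, 2155 bases for FCGR1A and 5422 for FCGR2A, so the ratio depends on it. Per kilobase, the ratio of FCGR1A to FCGR2A was 0.379 and 0.481 in the sgRNA Ctrl libraries and 2.40 and 2.59 in the sgNPM1A libraries. The conditions did not overlap in this ratio, whose mean went from 0.430 ± 0.0722 to 2.49 ± 0.137 (SD, n = 2). With 2 libraries against 2, an exact two-sided permutation test cannot give a p under 0.333, so the ratio is given as a value.

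The start regions of these genes are printed because they belong to the pair that moved apart. They are RefSeq windows of 300 bases on the plus strand of GRCh38.p14, from 250 bases before the annotated start to 50 after it, written 5′ to 3′. Capitals mark the matches of 4 motifs searched on both strands: the PU.1 core GAGGAA, the interferon-type GAS element TTCNNNGAA, the AP-1 site TGANTCA and the C/EBP-type TTNCNNAA. The FCGR1A window lies at chr1:149782444-149782743 and the FCGR2A window at chr1:161505207-161505506.
FCGR1A: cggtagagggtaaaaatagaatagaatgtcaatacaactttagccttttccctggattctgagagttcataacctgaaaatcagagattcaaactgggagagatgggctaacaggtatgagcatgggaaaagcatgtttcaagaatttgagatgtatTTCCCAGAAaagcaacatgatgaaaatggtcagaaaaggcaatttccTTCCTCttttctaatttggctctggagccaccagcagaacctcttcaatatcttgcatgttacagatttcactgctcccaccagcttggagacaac
FCGR2A: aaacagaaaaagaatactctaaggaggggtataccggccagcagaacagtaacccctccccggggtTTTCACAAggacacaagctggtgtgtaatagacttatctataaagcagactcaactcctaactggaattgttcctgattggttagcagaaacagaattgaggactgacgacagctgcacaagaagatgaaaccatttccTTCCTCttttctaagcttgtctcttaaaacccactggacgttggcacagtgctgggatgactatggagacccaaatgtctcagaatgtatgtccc
In FCGR1A the capitals mark a GAS match 93 bases before the start and a PU.1 core on the minus strand (printed as its reverse complement) 46 bases before it. In FCGR2A they mark a C/EBP-type match 184 bases before the start and a PU.1 core, again on the minus strand, 45 bases before it. The PU.1 cores sit in a run of 20 bases that both windows hold at nearly the same place, 52 bases before the start in FCGR1A and 51 in FCGR2A.
Shared run: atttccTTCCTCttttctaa
It was picked as the longest run that these windows share on the same strand, so both hold it by construction. Of all 35116 RefSeq start windows, 2 hold it on either strand, those of FCGR1A and FCGR2A. This count describes the run and is no test of it. The gene that rose and the gene that fell thus share this stretch, while the GAS match is in the FCGR1A window and not in that of FCGR2A. These are matches of letters in a window and no measurement of binding.

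Windows were listed for 9 of the 10 genes, 17 windows in all because several genes have more than 1 annotated start, and SIRPA had no entry. The PU.1 core was found in 11 of the 17 windows and in 8 of the 9 genes, against 27.85% of all windows. A GAS match was found in 2 windows (those of FCGR1A and of 1 CD36 start), against 7.66% of all windows. AP-1 matches were found in 3 of the 17 windows (7.71% of all windows) and C/EBP-type matches in 6 (36.84% of all windows). In 1 CD36 window and in 1 CD86 window the C/EBP-type match overlaps a PU.1 core, and the other CD86 window holds no match. Genes with more than 1 window have more letters to match, so the counts by gene are not comparable with the share of single windows. Some windows of the same gene overlap, and 1 PU.1 core of CD36 is counted in 2 windows, so the 17 windows are not independent.

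FCER1G (ENSG00000158869.10, chr1:161215295-161219245) encodes the common Fc receptor γ chain, the ITAM-bearing partner of FcγRI and of activating LILRA receptors. It had 128 and 145 CPM in sgRNA Ctrl and 160 and 163 CPM in sgNPM1A. The sgNPM1A libraries were both higher, but the control libraries differed from each other by about as much as the higher of them differed from the sgNPM1A libraries. The log2 fold change was 0.24 ± 0.07 (SE, edgeR adjusted p = 0.0327), a fold of 1.18 that is short of the size required for a call. Leaving out the second sgRNA Ctrl library gave a log2 fold change of 0.34, which was called (adjusted p = 0.00693), and leaving out the first gave 0.15 (adjusted p = 0.114). Without the first or the second sgNPM1A library the adjusted p was 0.156 and 0.227, and with the replicate number as a block it was 0.0802.

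CD36 (ENSG00000135218.17, chr7:80602207-80679274), a scavenger receptor for oxidized lipoproteins, long-chain fatty acids and thrombospondin, had 103 and 95.2 CPM in sgRNA Ctrl and 162 and 187 CPM in sgNPM1A. The conditions were well apart, and the sgNPM1A libraries were the more spread. The mean rose from 98.9 ± 5.19 to 174.5 ± 17.8 CPM (SD, n = 2), 1.77-fold, with a log2 fold change of 0.82 ± 0.08 (SE, edgeR adjusted p = 2.737e-05).

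CD86 (B7-2, ENSG00000114013.15, chr3:122055362-122121136) is a ligand of CD28 and CTLA-4 by which antigen-presenting cells stimulate or restrain T cells. It was expressed at 9.36 and 8.80 CPM in sgRNA Ctrl and at 11.6 and 12.2 CPM in sgNPM1A. The libraries of the conditions did not overlap, and the log2 fold change was 0.39 ± 0.12 (SE), a 1.31-fold rise with an edgeR adjusted p of 0.0317. This call was lost with DESeq2 (adjusted p = 0.110), with the replicate number as a block (adjusted p = 0.0656) and when the second sgRNA Ctrl library, the first sgNPM1A library or the second sgNPM1A library was left out (adjusted p = 0.0924, 0.0888 and 0.203), with log2 fold changes between 0.34 and 0.43 throughout.

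LILRB4 and LILRB1 belong to the leukocyte immunoglobulin-like receptors whose cytoplasmic tails carry ITIMs. LILRB4 (ILT3, ENSG00000186818.12, chr19:54662985-54668718) is an inhibitory receptor of monocytes and monocytic AML cells, and LILRB1 (ILT2, ENSG00000104972.15, chr19:54616322-54638022) binds MHC class I molecules. LILRB4 had 86.5 and 81.2 CPM in sgRNA Ctrl and 152 and 171 CPM in sgNPM1A. Both sgNPM1A libraries were well above both controls. The mean rose from 83.9 ± 3.78 to 161.7 ± 13.1 CPM (SD, n = 2), 1.93-fold, with a log2 fold change of 0.95 ± 0.08 (SE, edgeR adjusted p = 6.01e-06).

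LILRB1 went the other way, from 11.6 and 12.5 CPM in sgRNA Ctrl to 9.29 and 8.10 CPM in sgNPM1A. The conditions did not overlap, and the log2 fold change was -0.47 ± 0.12 (SE), 1.39-fold lower with an edgeR adjusted p of 0.0170. The call was lost without the second sgRNA Ctrl library (log2 fold change -0.41, adjusted p = 0.0692) and without the second sgNPM1A library (log2 fold change -0.37, adjusted p = 0.174). Per kilobase of exon, the ratio of LILRB4 to LILRB1 was 6.48 and 5.64 in sgRNA Ctrl and 14.3 and 18.3 in sgNPM1A, again with no overlap.

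SIRPA and CD33, also ITIM-bearing, were not called. SIRPA (SIRPα, ENSG00000198053.11, chr20:1894167-1940592) binds CD47 on other cells, the contact by which phagocytosis is held back. It had 228 and 233 CPM in sgRNA Ctrl and 246 and 255 CPM in sgNPM1A, and although the libraries did not overlap, the fold of 1.09 had a 95% interval from 0.985 to 1.20 (log2 fold change 0.12 ± 0.06 SE, edgeR adjusted p = 0.202). CD33 (Siglec-3, ENSG00000105383.14, chr19:51211076-51240016), a sialic acid-binding receptor and the target of gemtuzumab ozogamicin, had 81.4 and 89.3 CPM in sgRNA Ctrl and 88.2 and 90.1 CPM in sgNPM1A. Its conditions overlapped, and the fold of 1.04 had a 95% interval from 0.933 to 1.17 (log2 fold change 0.06 ± 0.07 SE, edgeR adjusted p = 0.583). The sign of the CD33 value depended on the first control library, since it was 0.00 (-0.0039) without it.

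CD68 (ENSG00000129226.13, chr17:7579638-7582111), a heavily glycosylated LAMP-family protein of late endosomes and lysosomes that serves as a macrophage marker, was close to absent from the table. It had 6 and 7 counts in sgRNA Ctrl and 9 and 10 counts in sgNPM1A, or 0.236, 0.270, 0.323 and 0.360 CPM, and did not pass the filter. In a fit without the filter its log2 fold change was 0.42 ± 0.59 (SE, edgeR adjusted p = 0.700), so a change was not detectable at this depth. Of its 2163 exonic bases, 1765 (81.6%) are also exonic in ENSG00000264772, a gene annotated on the same strand that takes in CD68 and its neighbor EIF4A1 and itself had 6, 3, 6 and 1 counts. EIF4A1, which encodes a translation initiation factor, had 364, 395, 412 and 409 counts, and 42.1% of its exonic bases lie in the same gene. How reads in shared bases were counted is not stated in the sources used here, so the CD68 values may not measure its RNA.

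**Figure D2:**
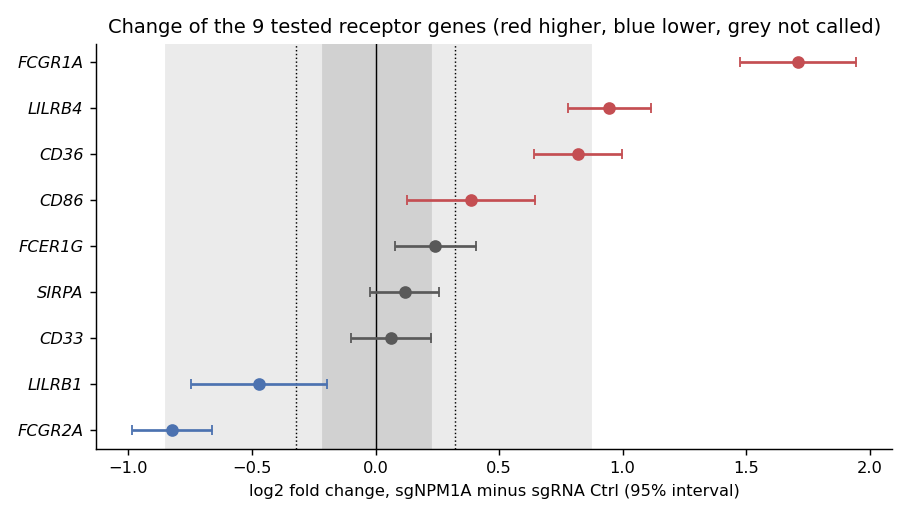
Log2 fold change of the 9 tested receptor genes, sgNPM1A over sgRNA Ctrl, with 95% intervals from edgeR; the light band (-0.85 to 0.87) and the dark band (-0.21 to 0.22) span the 5% to 95% and 25% to 75% quantiles of all tested genes, and dotted lines mark the absolute log2 fold change of 0.32 required for a call. FCGR1A (1.71) and LILRB4 (0.95) lie beyond the light band, and the intervals of SIRPA and CD33 cross 0.

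Divided by exonic length, FCER1G was the most highly expressed of the 10 in both conditions, at 142 ± 12.5 CPM per kb in sgRNA Ctrl and 168 ± 2.17 CPM per kb in sgNPM1A (SD, n = 2). SIRPA followed in both, at 46.5 ± 0.697 and 50.5 ± 1.36 CPM per kb. In sgRNA Ctrl the next places were held by FCGR2A (15.7 CPM per kb), CD33 (14.3 CPM per kb), LILRB4 (13.3 CPM per kb), CD36 (9.09 CPM per kb) and FCGR1A (6.76 CPM per kb), of which the libraries of CD33 and LILRB4 overlapped. In sgNPM1A the order was LILRB4 (25.6 CPM per kb), FCGR1A (22.1 CPM per kb), CD36 (16.0 CPM per kb), CD33 (14.9 CPM per kb) and FCGR2A (8.88 CPM per kb), of which the libraries of CD36 and CD33 overlapped. FCGR1A thus moved from the seventh place to the fourth and FCGR2A from the third to the seventh. CD86, LILRB1 and CD68 held the last places in that order in both conditions, with CD68 at 0.117 and 0.158 CPM per kb. The ITAM chain thus exceeded each of the receptors in level per length, FCGR1A included, in both conditions. This order depends on the length used, the union of all annotated exons (964 bases for FCER1G and 4957 for SIRPA). In CPM not divided by length, SIRPA (means of 230.6 and 250.3) lay above FCER1G (136.8 and 161.8) in sgRNA Ctrl and in sgNPM1A. In sgNPM1A the undivided CPM of FCER1G overlapped those of CD36 and LILRB4.

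**Figure D3:**
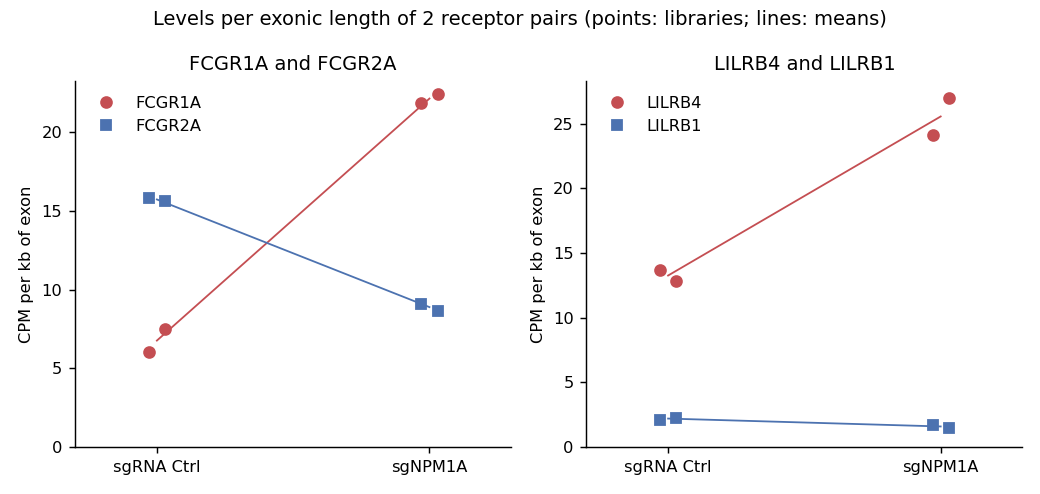
Levels in CPM per kb of exon for FCGR1A with FCGR2A (left) and LILRB4 with LILRB1 (right), with 1 point per library and lines joining the condition means (n = 2 each). The lines of FCGR1A and FCGR2A cross between the conditions, and LILRB4 moves away from LILRB1.

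The near relatives of FCGR1A and FCGR2A moved as the named gene did, with reads that cannot always be assigned to 1 copy. FCGR1BP rose from 1.09 ± 0.206 to 2.57 ± 0.541 CPM (log2 fold change 1.23, edgeR adjusted p = 0.00512) and FCGR1CP from 0.448 ± 0.0768 to 1.71 ± 0.122 CPM (1.92, adjusted p = 0.000915). Of the 50-base words of FCGR1A transcripts, 34.4% also occur in FCGR1CP, and 68.6% of those of FCGR1CP occur in FCGR1A. FCGR2B, the ITIM-bearing and inhibitory member of the FCGR2 genes, fell from 19.2 ± 2.95 to 7.37 ± 1.91 CPM (-1.38, adjusted p = 0.000123), and FCGR2C fell from 3.96 ± 0.796 to 2.30 ± 0.604 CPM (-0.78, adjusted p = 0.0265). In FCGR2A 25.9% of the words were shared with other genes, so most of its sequence is its own. The shares were 13.9% with ENSG00000289273, 10.2% with FCGR2C, 4.74% with ENSG00000273112 and 3.08% with FCGR2B. ENSG00000289273 overlaps 864 exonic bases of FCGR2A on the same strand and is not among the counted genes. FCGR2C shared 26.2% of its words with FCGR2B and 17.9% with FCGR2A, and FCGR1BP had too short an annotated transcript (75 bases) for its sharing with FCGR1A to be assessed. All 3 FCGR1 genes were thus higher and all 3 FCGR2 genes lower in sgNPM1A, values that are not independent where copies share sequence. FCGR3A had 1, 0, 3 and 8 counts, and FCGR3B had none in any library.

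FCER1G and the FCGR2 and FCGR3 genes lie together on chromosome 1, where FCER1G ends 286.2 kb before FCGR2A starts (GRCh38, RefSeq). Within this stretch FCER1G had a log2 fold change of 0.24, whereas FCGR2A, FCGR2C and FCGR2B had -0.82, -0.78 and -1.38. LILRB1 and LILRB4 are 25 kb apart on chromosome 19, next to LILRA2 and LILRA1. In the order of the chromosome, LILRA2 rose (log2 fold change 0.44), LILRA1 rose (0.76), LILRB1 fell (-0.47) and LILRB4 rose (0.95). FCAR, the IgA receptor that also signals through the FCER1G chain, lies 205.5 kb beyond LILRB4 and rose by 1.44 on the log2 scale. The edgeR adjusted p of LAIR1, an inhibitory collagen receptor in the same cluster, was 0.706 at a log2 fold change of 0.04.

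**Figure D4:**
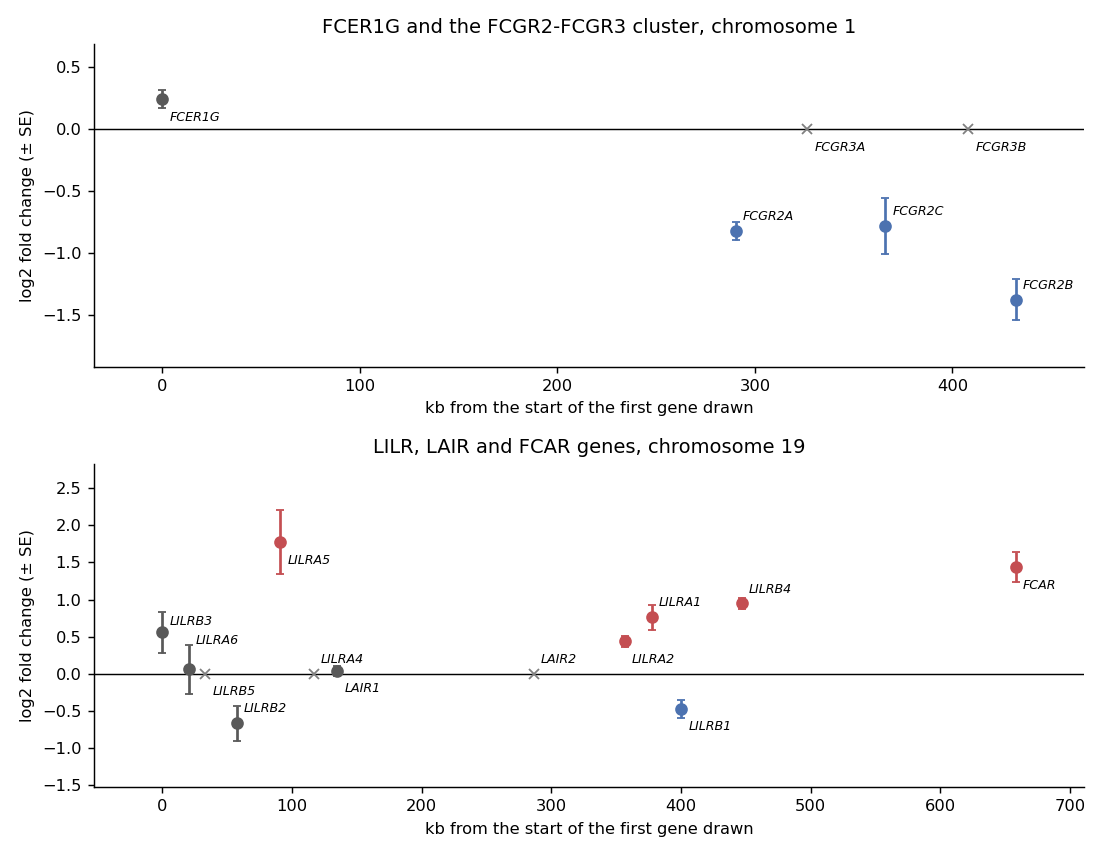
Log2 fold change (± SE) of the genes around FCER1G and FCGR2A on chromosome 1 and of the LILR, LAIR and FCAR genes on chromosome 19, by distance in kb from the start of the first gene drawn. Red points are called higher, blue points called lower, grey points not called, and crosses at 0 mark genes with too few counts to test. LILRB1 (-0.47) is called lower between LILRA1 (0.76) and LILRB4 (0.95), which are called higher.

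Among 24 other Fc receptor genes, 12 were tested, of which 6 rose and 2 fell (FCGR2B and FCGR2C), with a median log2 fold change of 0.37. This is 66.7% called, against 20.8% of all tested genes (10.5% higher and 10.3% lower). The lists were chosen with earlier results known, so such shares are no test of them. FCGRT, the neonatal Fc receptor that recycles IgG, rose from 158.4 ± 4.16 to 236.9 ± 1.51 CPM (SD, n = 2; log2 fold change 0.58, edgeR adjusted p = 5.436e-05). FCAR rose from 2.15 to 5.82 CPM.

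Of 24 tested genes for ITAM adaptors, kinases and further signaling proteins (30 listed), 10 rose, 5 fell and 9 were not called. This is 62.5% called, against 20.8% of all tested genes. The median log2 fold change was 0.24, the same value as for FCER1G. The list also holds phospholipases, exchange factors, ubiquitin ligases and scaffolds, and some of the calls in each direction are theirs. TYROBP, which encodes the adaptor DAP12, rose from 16.0 ± 0.478 to 21.7 ± 0.415 CPM (log2 fold change 0.44, edgeR adjusted p = 0.00575). SYK rose from 304.7 ± 14.9 to 419.6 ± 11.2 CPM (0.46, adjusted p = 0.000461). The Src family kinase FGR rose from 1.15 to 8.39 CPM (2.86, adjusted p = 8.873e-07), FYN by 0.89 and the Tec kinase TEC by 0.99 on the log2 scale. Of the 6 tested Src family kinases, 3 rose and 2 fell.

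A list of 9 tested genes covered phosphatases that ITIMs recruit, receptor phosphatases and other regulators. Of these, 1 rose and 0 fell (11.1% called, against 20.8% of all tested genes), and the median log2 fold change was -0.05. The gene that rose was PTPRJ, a receptor phosphatase rather than one that ITIMs recruit (log2 fold change 0.53, edgeR adjusted p = 0.000983). PTPN6, which encodes SHP-1, had 621 CPM in sgRNA Ctrl and 585 CPM in sgNPM1A on average (log2 fold change -0.09, adjusted p = 0.384). CD47, the ligand of SIRPα, had 30.6 and 35.6 CPM on average (0.22, adjusted p = 0.0730), and none of the 5 tested genes of the SIRP and CD47 list was called.

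Among the other LILR and paired receptors, 22 of 29 were tested, of which 9 rose and 4 fell (median log2 fold change 0.21). This is 59.1% called, against 20.8% of all tested genes, and for the other Siglecs below the share was 85.7%. CLEC12A, an ITIM-bearing lectin used as a leukemia marker, went from 4 and 5 counts to 95 and 89 counts (log2 fold change 4.20, edgeR adjusted p = 3.618e-06). TREML1 and CD300A rose by 2.04 and 1.43 on the log2 scale. Of the other ITIM-bearing LILRB genes, LILRB2 had a log2 fold change of -0.67 and LILRB3 of 0.56, neither called (adjusted p of 0.0581 and 0.170), and 50.8% of the words of LILRB3 are shared with LILRA6. By family, 3 of 4 tested LILRA genes rose and 0 fell, whereas among 4 tested LILRB genes 1 rose and 1 fell, and of 5 tested CD300 genes 1 rose and 3 fell. The Siglec relatives of CD33 were split as well, with 3 higher (SIGLEC16 among them, log2 fold change 2.15) and 3 lower (SIGLEC1 at -1.67 and SIGLEC9 at -0.94 among them) of 7 tested. SIGLEC16 shares 22.8% of its words with SIGLEC11, another of the 3 higher genes, so their values are not independent. The other higher genes had few counts, 4, 1, 25 and 25 for SIGLEC11 and 8, 8, 17 and 28 for SIGLEC14.

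The lists set beside CD86 and CD36 held no gene called higher, against 10.5% of all tested genes. In either direction, 20% of the CD28 and B7 list was called, near the 20.8% of all tested genes. Of the scavenger receptor and LAMP list 41.7% was called. Of the tested genes of these lists, 1 of 5 and 4 of 12 had a log2 fold change above 0. Of 5 tested genes of the CD28 and B7 list (12 listed), 1 fell (CD40, a TNF receptor family member of antigen-presenting cells, log2 fold change -0.62, edgeR adjusted p = 0.00306). CD80, the other B7 ligand of CD28, had 0, 0, 0 and 3 counts, too few for a test. Of 12 tested scavenger receptor and LAMP genes (19 listed), 0 were called higher and 5 fell (median log2 fold change -0.19). SCARB1 had a log2 fold change of 0.30 (edgeR adjusted p = 0.0244), short of the size required for a call. CD163, the hemoglobin-haptoglobin scavenger receptor of macrophages, fell from 27.7 to 3.47 CPM (698, 723, 97 and 96 counts, -3.00, adjusted p = 4.511e-08), MARCO by 1.48 and SCARA3 by 1.36 on the log2 scale.

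**Figure D5:**
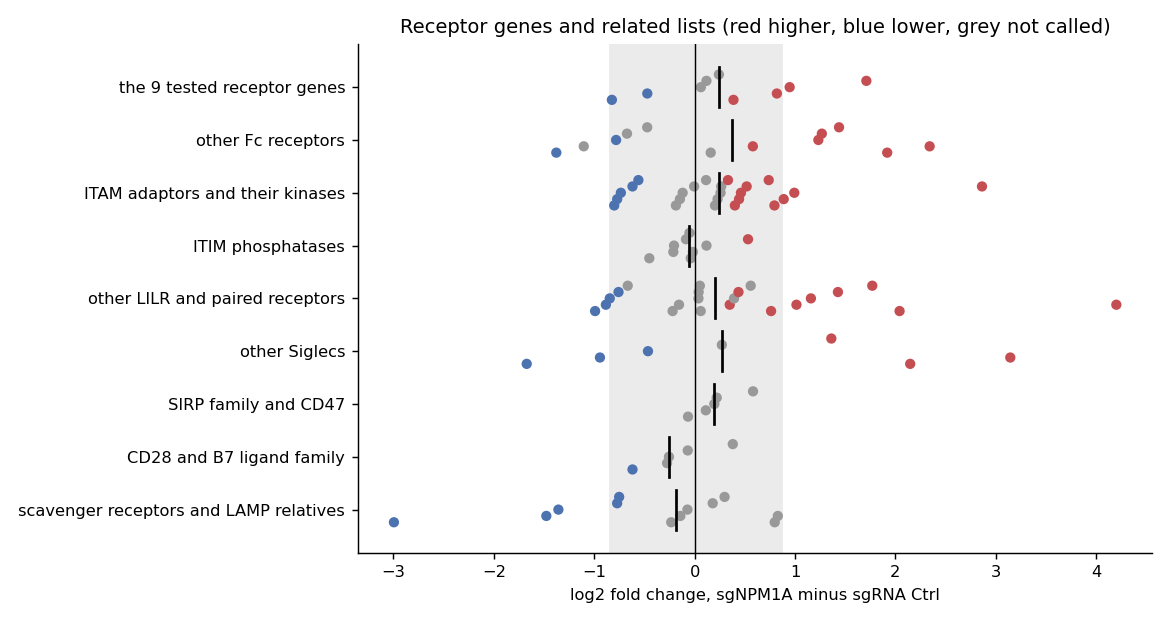
Log2 fold changes (sgNPM1A over sgRNA Ctrl) of the tested genes among the 10 and in each related list, with 1 point per gene, colored by call, and a bar at each median; the grey band (-0.85 to 0.87) spans the 5% to 95% quantiles of all tested genes. The list of ITIM phosphatases, receptor phosphatases and other regulators gathers near 0 (median -0.05). The scavenger receptors and LAMP relatives hold 5 lower and 0 higher genes, and the other Siglecs are split into 3 higher and 3 lower.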

How the data were processed

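Total RNA of OCI-AML3 cells was sequenced by the authors, who aligned the reads with STAR to hg38 and deposited raw counts per gene (whole numbers, not normalized) with Ensembl identifiers. The counting program, its annotation and its use of strand are not given in the sources used here. Groups came from the sample titles. The study calls the libraries biological replicates. Where they shared a culture, p-values would cover technical spread only.

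Genes passing filterByExpr (minimum count 10) were TMM-normalized and tested two-sided with edgeR's robust quasi-likelihood test (edgeR 4.0.16, limma 3.58.1, R 4.3.3; 2 against 2 libraries, no covariates). P-values were Benjamini-Hochberg adjusted over all 15718 tested genes, and calls needed a value under 0.05 together with a change of 1.25-fold or more. CPM are TMM-normalized. Lengths, overlaps and shared 50-base words came from GENCODE transcripts on another build, coordinates and start windows from RefSeq GRCh38.p14 tables. The fit was tested on simulated counts. Alternatives were DESeq2 1.42.0, limma-trend, other scalings, filters, folds and a replicate block, and each library left out.

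The 10 genes and all lists were chosen with earlier results of these data known. Named beyond the 10 were NPM1, near relatives, partners (TYROBP, CD47, CD80, SYK, PTPN6) and, per list, up to 3 called genes with the largest absolute log2 fold change and a mean of at least 1 CPM. Of those named, LILRA1, LILRA2, LAIR1, EIF4A1, SIGLEC11 and the FCGR3 genes were named for their position or shared bases, and marker genes because they were at 0 or led a summed level, after their values were seen. SCARB1, for a value short of a call, and SIGLEC14, for its low counts, were also named after their values were seen. Protein sequences were not analysed here.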

Additional observations from a re-analysis of the deposited data

How the results depend on the processing

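FCGR1A kept its direction and its call in all 15 alternatives (log2 fold change 1.56 to 1.88), and CD36 (0.71 to 0.92), FCGR2A (-0.86 to -0.78) and LILRB4 (0.86 to 1.03) lost theirs only where a fold of at least 2 was required. SIRPA stayed uncalled in all 15. At a fold of at least 2, 498 genes were called higher and 502 lower over the whole table, and of the receptor genes 1 was called higher and 0 lower. Leaving out 1 library in turn, 1 to 2 receptor genes were called lower (1 without the second sgRNA Ctrl or the second sgNPM1A library), the median log2 fold change of the receptor genes was 0.23 to 0.34, and that of CD33 ranged from -0.0039 (without the first sgRNA Ctrl library) to 0.13. In these fits the lone library of a condition is assumed to vary like the other condition. NPM1 was called lower by limma-trend on quantile-normalized values (log2 fold change -0.42) and with no fold limit (-0.22). With DESeq2, 1 other Fc receptor gene and 2 other LILR and paired receptor genes were called lower, against 2 and 4 with edgeR. Called higher were 5 and 8 genes of these lists, against 6 and 9. Of the other Siglecs 2 were higher and 2 lower (3 and 3 with edgeR), and 4 scavenger list genes were lower (5 with edgeR). Over the whole table DESeq2 called 1263 genes higher and 1244 lower. Scaling by library size alone moved the median of all genes to -0.04.

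The replicate numbers did not pair the libraries: the correlation of same-numbered deviations from the condition means was -0.13 over all tested genes and -0.52 over the 8856 genes above 10 CPM on average. With the replicate number as a block, 1637 genes were called higher and 1604 lower (1653 and 1619 without it), CD86 was no longer called (log2 fold change 0.39), and no other receptor gene changed its call. With the numbers crossed, an alternative added after seeing the data, 1955 genes were called higher and 1918 lower. In the lists, 1 gene of the ITIM phosphatase list was called lower (SOCS3, a suppressor of cytokine signaling and no phosphatase), 1 B7 list gene higher and 1 scavenger list gene higher. Of the other Fc receptor genes 3 were then called lower (2 without the block). Of the other LILR and paired receptor genes 5 were called lower, LILRB2 now among them (4 without the block). The cause of these changes was not tested. CD68 had no more than 10 counts in any library, and whether depth or the counting of shared bases set this was not tested.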
